A study of Mus musculus with 44 samples.

Results

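The regions described here were accessible in mouse cortical neurons given DMSO. They dropped out of the upper part of the peak lists when the neurons were treated with FHT1015, which the labels describe as inhibiting BAF ATPase activity. They were chosen from the 8 unstimulated drug libraries, in each of which the 75000 strongest autosomal intervals were kept and then merged over the libraries into 110048 regions. A library holds a region when one of its 75000 intervals overlaps it. A region is a member when all 4 DMSO libraries and none of the 4 FHT1015 libraries hold it. This gave 3999 members, 3.63% of the merged regions.

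Chromatin accessibility was profiled by ATAC-seq, which maps DNA that a transposase can enter, in primary neurons from mouse cortex taken at embryonic day 16.5. The 44 libraries form 22 groups of 2. At 7 days in vitro (DIV7), WT neurons received 0.1% DMSO or 100 nM FHT1015 for 10 or 30 min, either unstimulated or with 50 mM KCl, which depolarizes the membrane, for the same time (16 libraries). Also at DIV7, neurons that carried non-targeting guides or an Arid2 knockout were unstimulated or given KCl for 30 min (8 libraries). At DIV18, the same 2 states were profiled in 5 genotypes: non-targeting, Smarcc2 knockout with vector, and Smarcc2 knockout with add-back of WT Smarcc2, Smarcc2(S586A) or Smarcc2(S586E) (20 libraries). All groups share an overnight silencing with tetrodotoxin and D-AP5 and a DNase step in the wells. The labels treat each embryo's cortex as a biological replicate but tie no library to an embryo, so p-values measure the spread between these libraries, which may be technical. The labels give neither the knockout efficiency nor the share of cells that carried a guide or a construct.

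BAF is a multi-subunit remodeler that uses ATP to slide or evict nucleosomes, and it is known for keeping enhancers away from promoters accessible. Smarcc2 is a scaffold subunit of its core, and Arid2 belongs to PBAF, a related form of the complex. In developing neurons BAF changes its subunits as progenitors leave the cell cycle, and distal enhancers carry much of the response to depolarization.

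No genome was at hand from which to read the members' own DNA, so sequence is shown only where a member's summit fell inside a RefSeq promoter window (GRCm38.p6, 250 bases before to 50 after a gene's start). This was so for 16 of 20084 windows. The 4 with the highest mean rank in DMSO are printed because they are the members whose letters the reference gives, 5′ to 3′ on the gene's strand, with matches to the searched motifs in capitals. Cyp4f40 encodes a cytochrome P450 (chr17:32658777-32659076, + strand), Prxl2a a peroxiredoxin-like protein (chr14:41006871-41007170, − strand), Lrrc52 a leucine-rich repeat protein (chr1:167466731-167467030, − strand) and Crybb1 a crystallin (chr5:112255570-112255869, + strand).
Cyp4f40: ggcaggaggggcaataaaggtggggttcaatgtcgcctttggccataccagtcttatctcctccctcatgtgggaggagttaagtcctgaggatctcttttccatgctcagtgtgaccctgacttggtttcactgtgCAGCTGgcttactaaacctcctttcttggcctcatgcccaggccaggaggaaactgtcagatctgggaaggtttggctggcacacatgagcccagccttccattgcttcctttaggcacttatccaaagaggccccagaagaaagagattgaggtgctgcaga
Prxl2a: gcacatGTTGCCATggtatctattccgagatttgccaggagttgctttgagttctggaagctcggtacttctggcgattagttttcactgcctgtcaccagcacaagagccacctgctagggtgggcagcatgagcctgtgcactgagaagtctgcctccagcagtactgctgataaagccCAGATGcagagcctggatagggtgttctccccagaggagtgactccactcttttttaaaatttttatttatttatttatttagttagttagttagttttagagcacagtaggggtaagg
Lrrc52: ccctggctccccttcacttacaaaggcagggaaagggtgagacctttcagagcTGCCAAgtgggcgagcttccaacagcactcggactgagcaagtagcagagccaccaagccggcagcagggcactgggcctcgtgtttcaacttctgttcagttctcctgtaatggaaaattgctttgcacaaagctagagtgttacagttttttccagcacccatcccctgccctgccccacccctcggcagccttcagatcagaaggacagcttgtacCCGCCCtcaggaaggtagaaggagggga
Crybb1: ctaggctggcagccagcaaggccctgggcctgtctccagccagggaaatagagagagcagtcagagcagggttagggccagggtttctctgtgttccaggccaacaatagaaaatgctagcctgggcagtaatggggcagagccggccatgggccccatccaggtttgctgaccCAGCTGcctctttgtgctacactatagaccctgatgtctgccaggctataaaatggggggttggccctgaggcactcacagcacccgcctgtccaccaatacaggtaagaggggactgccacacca
The summits lay 70, 232, 189 and 178 bases before the start, in that order. The capitals mark, on either strand, the E-box CAGCTG (Cyp4f40 and Crybb1), the other E-box searched, CAGATG, with the RFX motif GTTGCCAT (Prxl2a), and the NFI core TTGGCA with the GC box GGGCGG (Lrrc52). In all, 14 motifs were searched on both strands. The others were the AP-1 motif TGANTCA, the cAMP response element TGACGTCA, the homeodomain core TAATTA, the SOX motif CCATTGTT, the MEF2 motif CTATTTTTA, the CTCF core AGGGGGCGC, the ETS motif CCGGAAGT, the TEAD motif CATTCC and the nuclear receptor motif TGACCTTTG. TTGGCA stood in 7 of the 16 windows (43.8%) and in 13.1% of all windows. CAGCTG stood in 5 (31.3% against 15.6%), and GGGCGG in 4 (25.0% against 47.0%). The AP-1 motif stood in 2 (12.5% against 7.06%), and the cAMP response element in 0 (2.30% of all windows). The median GC content was 52.8% in the 16 windows, 57.0% over all windows and 62.7% in the 7975 windows with a summit of a region held by all 8 libraries. With 16 windows these shares are a description only.

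All 4 printed promoters lost their interval with FHT1015 and KCl at 30 min, in libraries the rule did not use. Cyp4f40 ranked 64438 and 56686 with DMSO and KCl at 30 min and had no interval with FHT1015, so its log2 rank score fell by 1.14 ± 0.18, where 1 unit is a rank divided by 2 (SE, limma adjusted p = 0.00333). At 10 min its ranks with KCl were 64813 and 61664 for DMSO and 61267 and 65457 for FHT1015, and the groups overlapped (0.00 ± 0.18, adjusted p = 1). Prxl2a fell by 1.48 ± 0.22, Lrrc52 by 1.69 ± 0.22 and Crybb1 by 1.49 ± 0.21 at 30 min (adjusted p = 0.00291, 0.00211 and 0.00237). The windows not printed did not all follow. Plekhb1 ranked 61859 and 51080 with DMSO and 37773 and 26023 with FHT1015, a rise of 0.84 ± 0.24 (adjusted p = 0.0284). Of the 32 members within 1 kb of a protein-coding start, 18 were called lower at 30 min and 1 higher. Over all regions tested, 23% were lower and 14.8% higher.

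In DMSO the members ranked low among the 75000 kept intervals, but in the upper part of the whole lists. These lists held 240823 to 276666 autosomal intervals, and the fold enrichment at rank 75000 was still 7.70 to 8.29. The median over members of their median DMSO rank, where rank 1 is the strongest interval of a library, was 56653.5 (25750.5 to 74236), and 97.7% of them ranked in the weaker part of the 75000, past its midpoint, against 23.2% of the 39619 regions held by all 8 libraries. They were also narrow, with a median width of 554 bp, against 1224 bp for regions held by all 8 and 617 bp for all merged regions. These ranks chose the members and support nothing further.

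The data go partly against the word closed. In the 2 FHT1015 libraries at 10 min, 92.5% and 83.8% of the members still had an interval somewhere in the deposited list, at median ranks of 101305 and 106616. At 30 min this share was 12.6% and 19.1%. Only 160 members (4.00%) had no interval in any FHT1015 list, and 252 (6.30%) had one in all 4. Over all merged regions an interval was found for 93.5% and 88.9% in the 10 min lists, then 70.2% and 74.6% in the 30 min lists. The rule asked for ranks past 75000 in all 4 libraries, so these shares are a description of the members.

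The threshold sets who is a member. A member nearest to Galnt3 had its best FHT1015 rank at 75005, and a region nearest to Morn5, just outside, had 74984. A member nearest to Lpar3 had its last DMSO rank at 74999, and a region nearest to Dlg5, just outside, had 75001. With the top 50000 intervals the same rule gave 2533 regions, and these overlapped 296 of the 3999 members (7.40%). With the top 100000 it gave 6311, overlapping 1382 (34.6%). The 10 min libraries alone gave 7496 regions and the 30 min libraries alone 18783.

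Library strength moved with the drug. The 4 unstimulated DMSO lists held 240823 to 276666 autosomal intervals and the 4 FHT1015 lists 143439 to 194928. With KCl the DMSO lists held 227122 to 239494, FHT1015 at 10 min 199914 and 217724, and FHT1015 at 30 min 153003 and 178688. The fold enrichment at rank 75000 was 7.70 to 8.29 in unstimulated DMSO libraries and 3.55 to 4.85 with FHT1015. Gene ends were open in these cultures for neuronal and other lists. A region within 1 kb held by all 4 DMSO libraries was found for 16 of 20 excitatory, 15 of 22 inhibitory and 32 of 42 synapse genes. It was found for 13 of 18 progenitor, 11 of 16 astrocyte, 8 of 15 oligodendrocyte, 6 of 15 vascular and 4 of 15 microglia genes. These shares do not set neurons apart from progenitors or astrocytes. An open gene end is not expression. Peak lists do not show whether Smarcc2 protein was lost. The add-backs could be checked: the 12 add-back libraries had 20 to 27 intervals in the Smarcc2 gene, and the other libraries at DIV18 had 3 to 12.

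The 8 members with the highest mean DMSO rank score were nearest to Galnt9, Galnt14, Myo18b, Ppp4r2, Rnf150, Fam189a1, Zfp827 and Il20rb, and 6 of them lay inside the gene. The rank score compares the best interval over a region with rank 133009, where the shortest of the 44 lists ends. It is the log2 ratio of that rank to the region's own, and 0 for regions ranked lower or without an interval. Galnt9 encodes an enzyme that starts O-linked glycosylation. Its member (chromosome 5, 110580627 to 110581255) ranked 19841 and 26954 in DMSO at 10 min and 33458 and 24958 at 30 min. With FHT1015 it ranked 81165 and 94535 at 10 min, had no interval in 1 library at 30 min and ranked 128910 in the other. The groups do not overlap, as the rule requires.

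Ppp4r2, a regulatory subunit of protein phosphatase 4, lay 82772 bp from its member (chromosome 6, 100952359 to 100952902). This region ranked 29022, 30631, 22858 and 27272 in the 4 DMSO libraries, 97682 and 111120 with FHT1015 at 10 min, and had no interval at 30 min. The member inside Myo18b, an unconventional myosin (chromosome 5, 112886394 to 112887554), kept an interval in all 4 FHT1015 lists, at ranks 79128, 94546, 98934 and 75370. So even the strongest members ranged from a loss of rank to the loss of any interval.

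Few members lay at gene starts. Of the 3850 members on the 18 autosomes with start positions, 32 (0.83%) lay within 1 kb of a protein-coding start, against 10.4% of all merged regions and 24.4% of regions held by all 8 libraries. A further 1.25% lay within 1 kb of a gene end, meaning either boundary of a gene, which takes in starts not listed. Of the rest, 52.8% of the members lay inside a gene, 28.8% outside within 100 kb and 16.4% farther than 100 kb. The last share was 11.9% for all merged regions. The median distance to a start was 70638.5 bp for members, 39366.5 bp for all regions and 23837.5 bp for regions held by all 8. Regions held by all 8 lay at a start less often past the midpoint of the 75000, as given below. The members were therefore also set beside other regions past that midpoint. Ranks still differed there (a median of 56894 for members and 48105.5 for regions held by all 8). Of 8845 regions past the midpoint of the 75000 and held by all 8, 5.34% lay at a start, and of 10093 such regions held by 4 DMSO and 1 to 3 FHT1015 libraries 1.03% did. No test was made of these shares, since place was read on the regions the rule ranked. The bar plot of place shows the same shares.

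**Figure D1:**
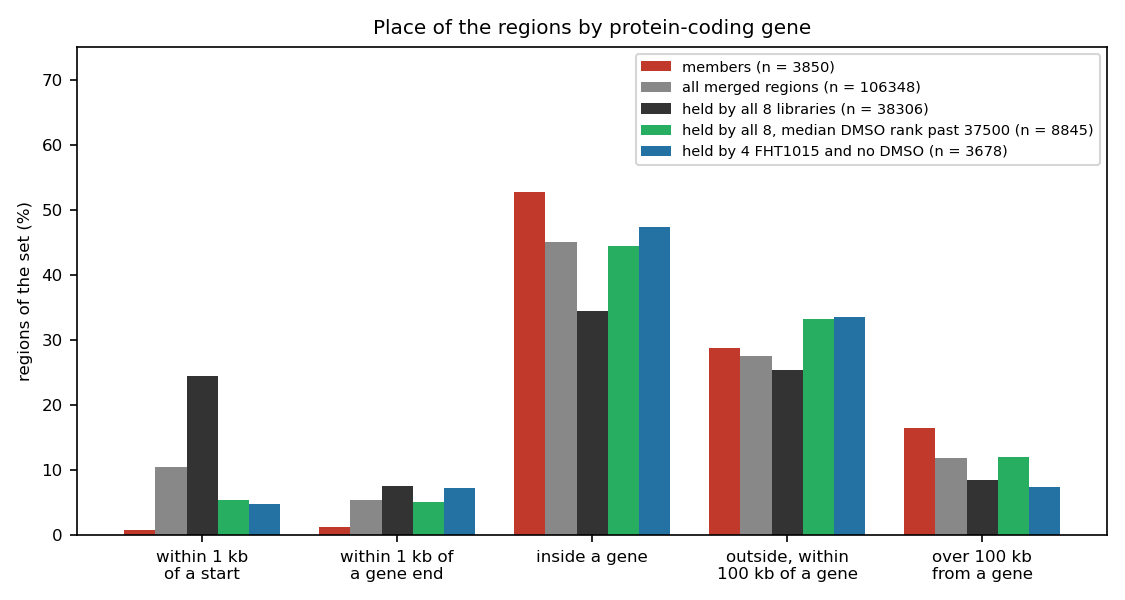
Bars give the percent of each set of regions by place relative to protein-coding genes, where a gene end is either boundary of a gene. The number of regions on the 18 autosomes with start positions is given as n. Members are at 0.83% in the start class and 16.4% in the class over 100 kb, and regions held by all 8 libraries at 24.4% and 8.45%.

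The members were spread over many genes. They had 2744 nearest genes, 1942 of them with a single member, and 46 genes had 5 or more. The share of regions that were members ran from 3.14% on chromosome 17 to 4.26% on chromosome 6. Another member lay within 50 kb for 949 members (23.7%) and within 10 kb for 235 (5.88%). Most genes with many members are long. Snd1, which encodes an RNA-binding nuclease-domain protein, had 9 members among its 51 regions, all inside the gene of 454.8 kb. Auts2, a regulator of neuronal development, had 8 among 125 regions, and Nrxn3, a presynaptic adhesion protein, 8 among 75. Hivep3, a zinc finger factor, had 7 among 52, and Rbfox1, a splicing factor of neurons, 7 among 106. Tbc1d22a also had 7.

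Depolarized libraries, which the rule did not use, kept most members in DMSO. They kept a smaller share of members than of the other regions held by all 4 unstimulated DMSO libraries. With KCl, the 2 DMSO libraries held 75.6% and 80.4% of the members at 10 min and 69.0% and 70.9% at 30 min. FHT1015 with KCl held 60.9% and 55.2% at 10 min and 26.3% and 14.8% at 30 min. At both times every FHT1015 library held fewer members than every DMSO library of that time. All merged regions moved less, at 64.2% and 64.6% (DMSO) and 65.4% and 63.1% (FHT1015) at 10 min, and 62.3% and 63.0% against 59.3% and 52.5% at 30 min. The other regions held by all 4 unstimulated DMSO libraries were at 97.8% and 98.0% (DMSO) and 98.0% and 97.0% (FHT1015) at 10 min. At 30 min they were at 94.4% and 95.1% against 89.5% and 82.9%. They were not matched to the members by DMSO rank. Of the members, 374 (9.35%) were held by all 4 DMSO and none of the 4 FHT1015 libraries with KCl, and 1 by none and all 4; over all merged regions these patterns covered 1.43% and 0.46%. In bulk libraries, fewer cells with an open site and less opening per cell cannot be told apart.

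**Figure D2:**
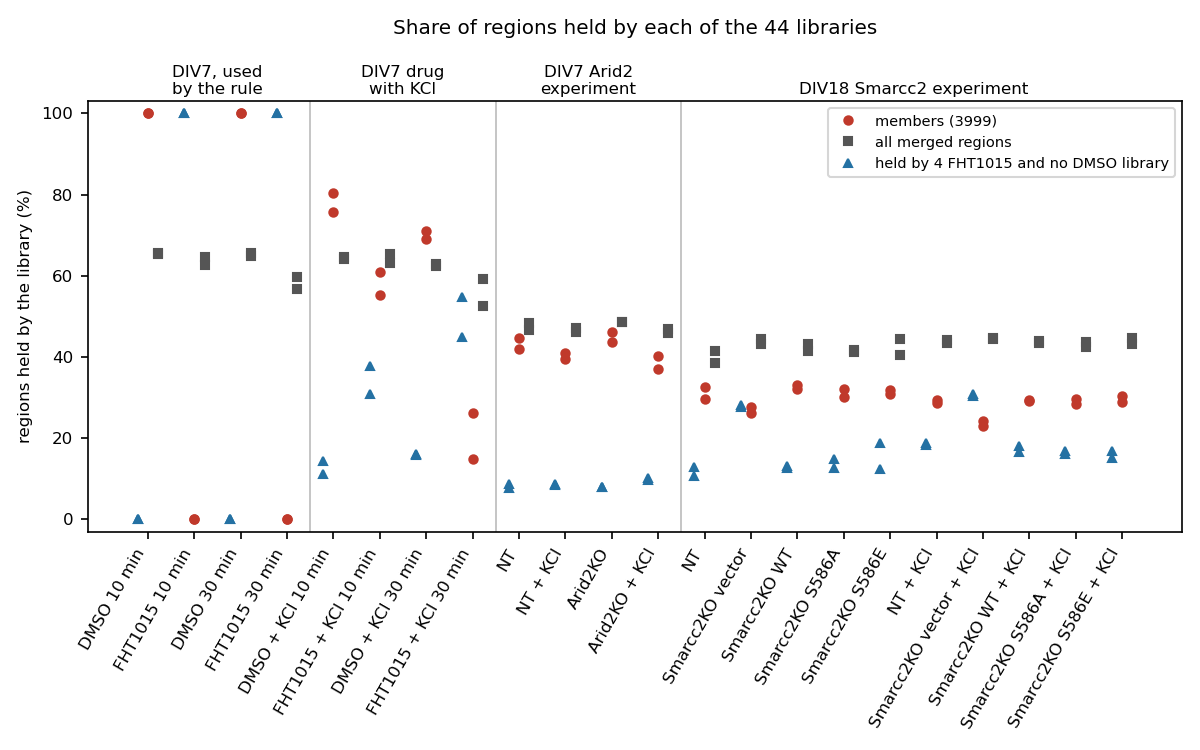
Each point is the percent of a set of regions that 1 library holds among its top 75000 intervals, for members, all merged regions and regions held by 4 FHT1015 and no DMSO library; NT is non-targeting. The values of 0 and 100% at the left follow from the rule, and members at the right run from 23.1 to 27.6% in the knockout with vector and from 28.4 to 33.1% in the add-backs.

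At 10 min of KCl, FHT1015 lowered the rank of few single members beyond the spread of the libraries. Of 3998 members tested, 7 ranked lower and 0 higher (limma, adjusted p under 0.05 over 100687 regions), where 0.127% of all regions were called lower and 0.0318% higher. At an unadjusted p under 0.05 there were 1008 members (25.2%), against 18.6% of all regions. The median change was −0.23 over members and 0.02 over all regions tested. Leaving out any 1 of the 4 libraries left 0 or 1 calls. Ranking each summit on its own gave 389 members lower (9.87%) and 9 higher (0.228%). Calls over all regions rose too, to 2.38% lower and 0.356% higher.

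At 30 min of KCl, more than 2000 members fell with FHT1015. Of 3998 tested, 2146 (53.7%) ranked lower and 26 higher, where 23% of all regions were called lower and 14.8% higher. The median change was −0.77 over members and −0.07 over all regions. Among the members called lower the changes ran from −0.47 to −2.59, and among those called higher from 0.56 to 0.99. By place, 56.3% of the 32 members at a start, 53.4% of those inside genes, 58.4% within 100 kb and 45.7% farther out were lower. Without DMSO with KCl at 30 min replicate 2 the count lower was 1295, and without either DMSO library the count higher was 4. With the number of deposited intervals as a covariate, 0 members were called in either direction (23 lower and 2 higher of all 100687 regions, 761 members, 19%, had an unadjusted p under 0.05, against 16% of all regions) and the median over members was −0.47. List length follows the drug in these libraries, so the 2 cannot be told apart.

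**Figure D3:**
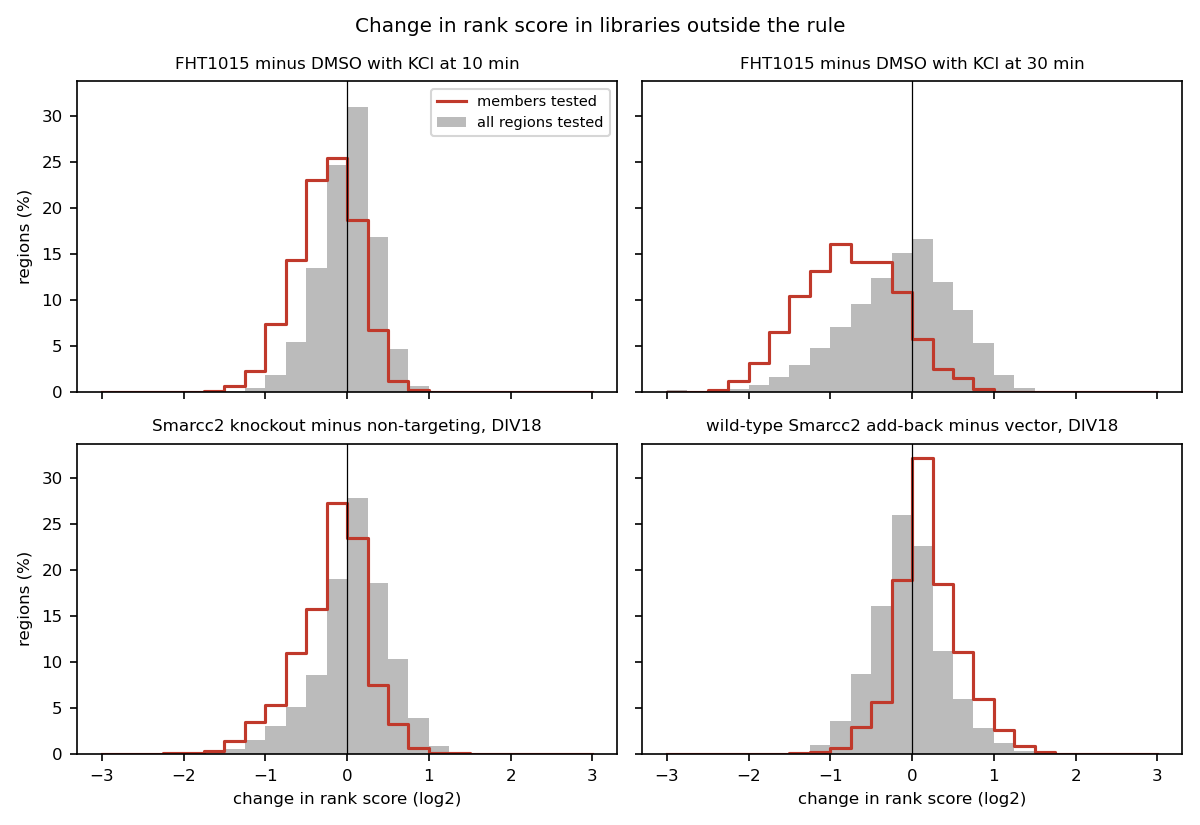
Histograms of the change in log2 rank score in libraries outside the rule, as percent of regions per bin of 0.25, with all regions tested in grey and members tested as a red line. The members' median is −0.23 and −0.77 with FHT1015 and KCl at 10 and 30 min, −0.10 in the Smarcc2 knockout and 0.15 in the wild-type add-back.

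Called at both times with the same sign were 7 members, and the 6 with the largest change were nearest to Fgf17, 4930488N24Rik, Slc22a23, Tspan11, Hhat and Gjb5. Their 10 min calls were not kept in other fits. With list length as a covariate 0 members were called at 10 min, and with the replicate number as a block also 0. The member 2402 bp from Fgf17, a growth factor of brain patterning (chromosome 14, 70644457 to 70644959), ranked 34089 and 37182 with DMSO and KCl at 10 min and 155001 and 102839 with FHT1015. At 30 min it ranked 46782 and 45988 with DMSO, and with FHT1015 102782 in 1 library and had no interval in the other. The 2 drugs did not overlap at either time, and the changes were −1.72 ± 0.22 (SE, adjusted p = 0.041) and −1.33 ± 0.22 (adjusted p = 0.00391). A member inside Slc22a23, a transporter of the organic ion family (chromosome 13, 34193371 to 34193855), ranked 47278, 43075, 36561 and 31604 in the 4 DMSO libraries with KCl. With FHT1015 it ranked 131302 and 128412 at 10 min and had no interval at 30 min. It fell by 1.52 ± 0.18 (adjusted p = 0.0319) and by 1.97 ± 0.18 (adjusted p = 0.000912).

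The member inside Hhat, the enzyme that attaches palmitate to Hedgehog proteins (chromosome 1, 192542155 to 192542447), fell by 1.44 ± 0.18 and 1.68 ± 0.18 (adjusted p = 0.0351 and 0.00127). It had no interval in any of the 20 libraries at DIV18. The member 4334 bp from Tspan11, a tetraspanin (chromosome 6, 127883044 to 127883347), had no interval in any unstimulated FHT1015 list and fell by 1.42 ± 0.18 and 1.75 ± 0.18 (adjusted p = 0.0361 and 0.00111). The region 38749 bp from 4930488N24Rik fell by 1.40 ± 0.19 and 2.40 ± 0.19 (adjusted p = 0.0483 and 0.000613). That 44182 bp from Gjb5, a connexin, fell by 1.22 ± 0.17 and 1.58 ± 0.17 (adjusted p = 0.0492 and 0.00124).

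The 8 strongest members in DMSO also differed in how they responded with KCl at 30 min. Ppp4r2 had no interval in either FHT1015 library and ranked 25857 and 23234 in DMSO, a change of −2.44 ± 0.22 (adjusted p = 0.000857). Fam189a1 fell by 1.75 ± 0.31 (adjusted p = 0.0049), Il20rb, a cytokine receptor subunit, by 1.53 ± 0.35 (adjusted p = 0.0119), and Galnt9 by 1.44 ± 0.30 (adjusted p = 0.00822). Rnf150, a RING finger protein, fell by 1.36 ± 0.18 (adjusted p = 0.00227) and Myo18b by 0.94 ± 0.23 (adjusted p = 0.0152). Galnt14 had −0.87 ± 0.38 (adjusted p = 0.104) and the zinc finger gene Zfp827 −0.65 ± 0.29 (adjusted p = 0.109), and neither passed. With list length as a covariate the 30 min change turned to 0.15 at Galnt9, 0.13 at Fam189a1 and 0.50 at Il20rb, with no call. None of the 8 passed at 10 min (adjusted p from 0.0857 to 0.808).

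The lists of genes were read through the gene nearest to each member. The share of regions that were members ran from 1.61% at housekeeping genes (1 of 62) to 5.40% at neural progenitor genes (17 of 315), against 3.63% of all regions. At 30 min of KCl no member of any list was called higher. The shares called lower are to be read against 53.7% of all members and 23% of all regions, and nothing particular to a list was tested. Called lower were 30 of 72 members at axon guidance and adhesion genes (median −0.65), 15 of 31 at synapse and excitability genes (−0.69), 11 of 17 at progenitor genes (−0.74), 8 of 14 at excitatory neuron genes (−0.90), 7 of 11 at BAF subunit genes (−0.79), 6 of 18 at late activity genes (−0.28), 6 of 10 at astrocyte genes (−1.0) and 3 of 11 at early activity genes (−0.41). The inhibitory neuron list had 4 of 7, vascular 3 of 5, oligodendrocyte 2 of 4, microglia 1 of 2 and housekeeping 1 of 1. At 10 min no list member was called in either direction; all 7 called members lay nearest to other genes.

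Single members of these lists show the range. The region inside Sema6d, a semaphorin that guides axons (chromosome 2, 124635074 to 124635735), ranked 30502 and 25719 with DMSO and KCl at 30 min and 87919 and 105639 with FHT1015, a fall by 1.78 ± 0.23 (adjusted p = 0.00196). The region 10322 bp from Acan, a proteoglycan of the perineuronal net (chromosome 7, 79042746 to 79043303), ranked 28338 and 24868 and then 51731 and 42760, so 2 FHT1015 libraries still held it (−0.83 ± 0.20, adjusted p = 0.0142). Inside Bcl11b, a transcription factor of deep-layer neurons and BAF subunit, the change was −0.99 ± 0.23 (adjusted p = 0.0125; 0.12 with list length as a covariate), and inside Arid1b, a BAF subunit, −1.16 ± 0.18 (adjusted p = 0.00322). Sox5, a factor of deep-layer neurons, had −1.39 ± 0.22 (adjusted p = 0.00334), and Nfia, a factor of glial fate, −1.49 ± 0.20 (adjusted p = 0.00229).

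Not all moved. A member 651618 bp from Nr4a2, an activity-induced nuclear receptor gene (chromosome 2, 56454608 to 56455376), ranked 53724 and 55498 in DMSO and 33654 and 71449 with FHT1015, and the groups overlapped (0.16 ± 0.35, adjusted p = 0.767). A member 84204 bp from Id4, a helix-loop-helix factor of progenitors (chromosome 13, 48176756 to 48177290), ranked 74344 and 81600 in DMSO and 46658 and 64703 with FHT1015 (0.50 ± 0.24, adjusted p = 0.136). That member had been at ranks 40404 to 41395 in all 4 unstimulated DMSO libraries. Klf2, Foxp1, Ctnna2, Kcna1, Cacna1a and Maf had members with changes of −0.77, −0.40, −0.60, −0.70, −0.84 and −0.74 and adjusted p of 0.0517 to 0.26. The median over all tested members was −0.77. The changes from Klf2 to Maf were below 0 without a call, which shows neither a fall nor that these regions were unaffected.

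**Figure D4:**
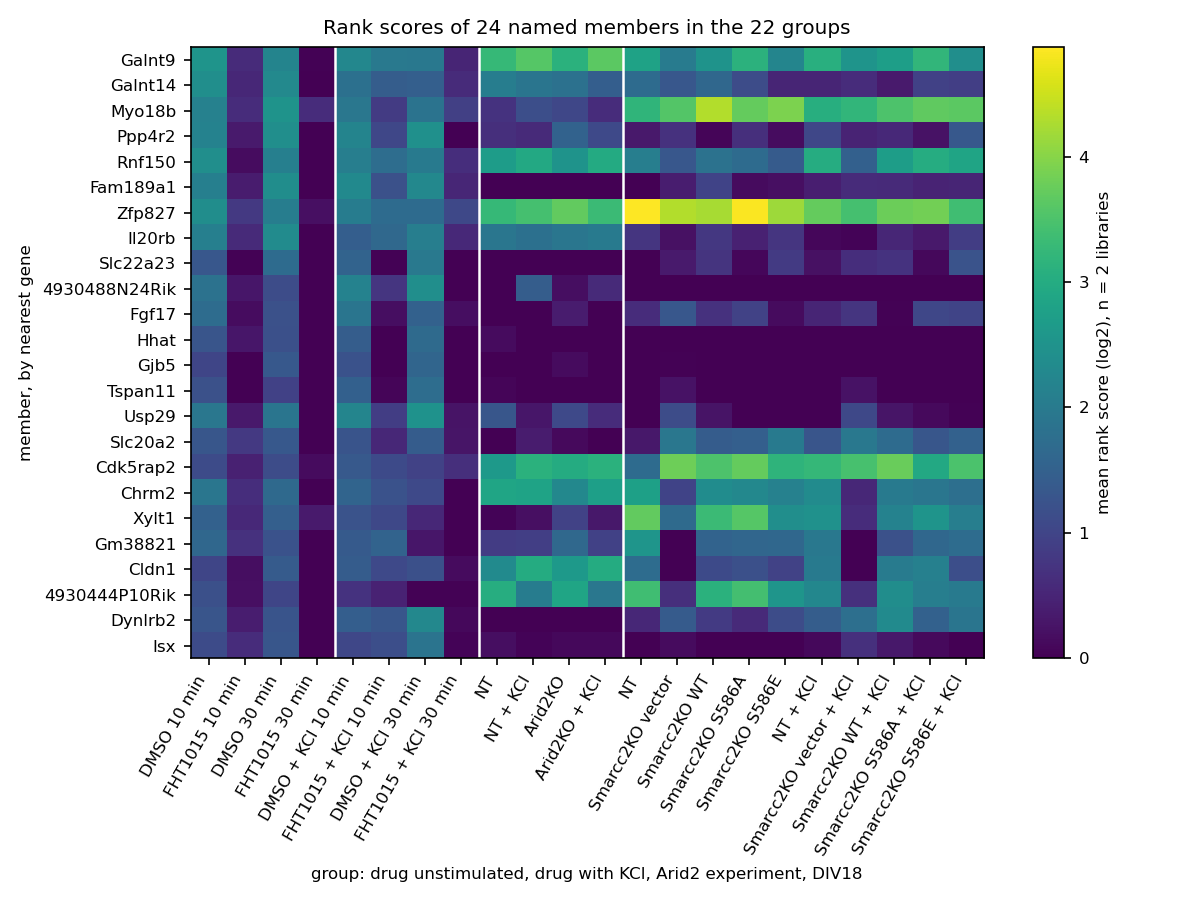
Mean log2 rank score (colour, n = 2 libraries) of 24 members named by the fixed rule, 1 per row by nearest gene, in the 22 groups. The FHT1015 30 min columns are dark in nearly every row, as the rule requires, and the rows of Chrm2 to 4930444P10Rik are darker in the knockout with vector than in the other DIV18 genotypes.

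The FHT1015 effect with KCl was also read by the number of unstimulated FHT1015 libraries that hold a region. Among regions held by 4 DMSO libraries with a median DMSO rank past the midpoint of the 75000, the share called lower at 30 min of KCl was 53.1% where no unstimulated FHT1015 library held the region, 44.7% with 1, 33.6% with 2, 29.0% with 3 and 8.70% with all 4. DMSO strength was not alike over these classes: their median DMSO ranks were 56894, 52782.5, 48179, 47622 and 48105.5, in that order. The share called higher ran from 0.67% to 36%. In the same order, the libraries with FHT1015 and KCl at 30 min held 20.4, 35.9, 54.2, 66.4 and 90.8% of the regions. The FHT1015 effect differed between 30 and 10 min of KCl for 3 members, lower at 30 min in each, and for 0 in the other direction (limma; 0.183% and 0.0407% of all regions; 1231 members, 30.8%, had an unadjusted p under 0.05, against 20.1% of all regions). The calls were not kept when a DMSO or 10 min FHT1015 library was left out. Leaving 1 out leaves a group with 1 library, so only medians of the difference are given. Without 30 min FHT1015 replicate 1 the median was −0.61 over members and −0.16 over all regions. Without replicate 2 it was −0.41 and −0.05. Without any 1 of the other libraries the median over members ran from −0.48 to −0.54.

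**Figure D5:**
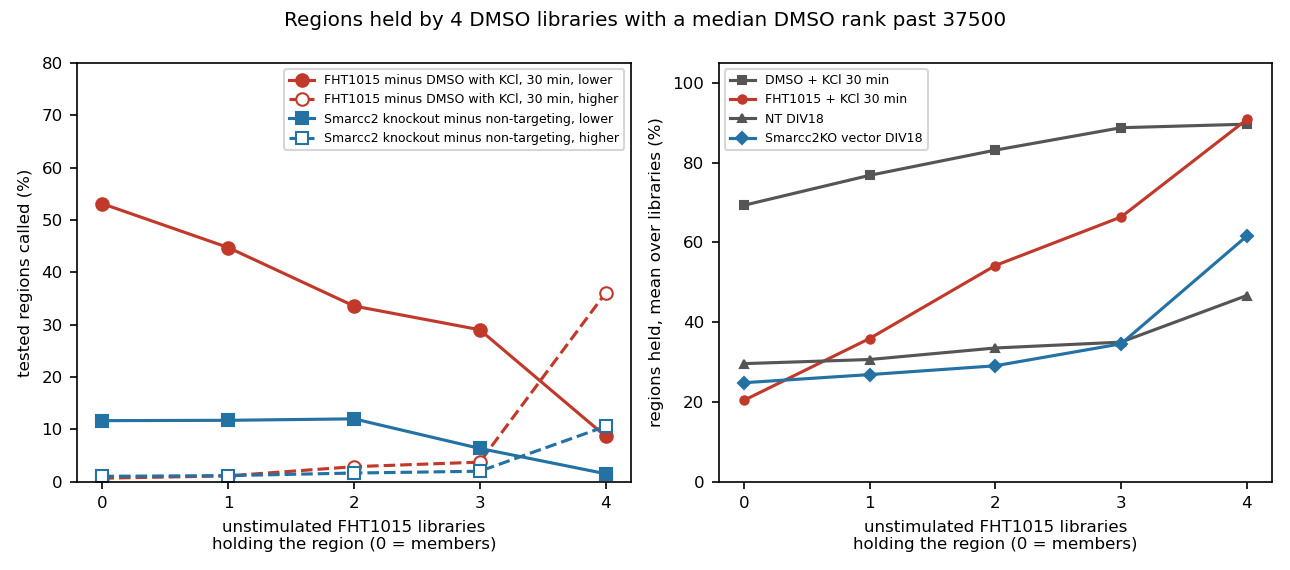
For regions held by 4 DMSO libraries past the midpoint of the 75000, the left panel gives the percent of tested regions called lower (filled) or higher (open), and the right panel the mean percent held, against the number of unstimulated FHT1015 libraries that hold the region. Calls lower with FHT1015 and KCl fall from 53.1 to 8.70%, and in the Smarcc2 knockout from 11.7 to 1.53%.

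At DIV18 fewer members were found in any genotype, and the knockout held the fewest. Non-targeting libraries held 29.7 and 32.7% of the members unstimulated and 28.6 and 29.5% with KCl. Smarcc2 knockout with vector held 26.2 and 27.6% unstimulated and 24.3 and 23.1% with KCl. All 4 knockout libraries were below all 4 non-targeting ones. Over all merged regions the order was the other way or mixed, at 38.6 to 44.3% in non-targeting and 43.3 to 44.8% in knockout libraries. Of the members, 1835 (45.9%) were held by none of the 20 libraries, against 36.5% of all merged regions. Of the other regions held by all 4 unstimulated DMSO libraries, 15.6% were held by none.

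Among single members, 329 of 2800 tested (11.8%) ranked lower in the knockout than in non-targeting neurons and 29 higher, where 5.57% of all regions were lower and 6.25% higher. By summit 362 members were lower and 14 higher, and the direction over all regions turned, to 6.90% lower and 3.61% higher. The median change was −0.10 over tested members and 0.09 over all regions. The other members had a score above 0 in fewer than 2 of the 20 libraries. With no such filter 252 of all 3999 were lower (6.30%) and 26 higher (0.65%), against 3.27% and 3.59% of all regions. By list, called lower were 8 of 42 members at axon guidance genes, 3 of 12 at late activity genes, 3 of 8 at excitatory neuron genes (1 higher), 2 of 20 at synapse genes (1 higher), 2 of 7 at BAF genes, 1 of 11 at progenitor genes, 1 of 7 at astrocyte genes and 1 of 2 at microglia genes. None was called among 9 at early activity, 4 at oligodendrocyte, 3 at inhibitory neuron and 2 at vascular genes, and no housekeeping member was tested. The count fell to 205 without non-targeting unstimulated replicate 1 or without knockout unstimulated replicate 2, and to 164, 175 and 198 without non-targeting KCl replicate 1 or 2 or knockout KCl replicate 2. The count higher fell to 7 without non-targeting unstimulated replicate 1, and to 8 and 14 without non-targeting KCl replicate 1 or 2. With list length as a covariate 132 members were lower (4.71%) and 19 higher (0.68%), against 2.50% and 3.87% of all regions. The knockout lists held 162079 to 211671 intervals and the non-targeting lists 213061 to 261710.

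Regions lost in only some FHT1015 libraries were also called lower in the knockout. Past that midpoint, the share called lower was 11.7% for members, 11.7% with 1 FHT1015 library holding the region, 12% with 2, 6.36% with 3 and 1.53% with all 4. Calls higher ran the other way, from 1.03% for members to 10.6%.

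The 5 members with the largest fall in the knockout were nearest to Gm38821, 4930444P10Rik, Xylt1, Cldn1 and Chrm2. The region inside Gm38821, a predicted gene (chromosome 6, 51265327 to 51265740), ranked 29385, 17823, 31865 and 36710 in the non-targeting libraries. In the knockout it ranked 143243 and 137151 unstimulated and had no interval with KCl. The groups do not overlap, and the change was −2.25 ± 0.27 (adjusted p = 0.000605). In the WT add-back it ranked 50322, 40455, 58616 and 56216, higher than vector by 1.39 ± 0.27 (adjusted p = 0.00848). S586A gave 1.62 ± 0.27 and S586E 1.67 ± 0.27 against vector (adjusted p = 0.00376 and 0.00261).

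The region 74664 bp from 4930444P10Rik (chromosome 1, 15991064 to 15991545) ranked 10513, 15744, 24410 and 31868 in non-targeting and 76533, 93343, 82538 and 83686 in knockout libraries, a change of −2.15 ± 0.21 (adjusted p = 0.000157). Its ranks in the WT add-back were 14013, 17069, 20625 and 31228, in the range of the non-targeting libraries, and the changes from vector were 2.08 ± 0.21 (WT), 2.08 ± 0.21 (S586A) and 1.59 ± 0.21 (S586E; adjusted p = 0.000262, 0.000287 and 0.000975). At DIV7 this region ranked 56498 to 69440 in the 4 unstimulated DMSO libraries, and 13950 and 18642 in the unstimulated non-targeting libraries of the Arid2 experiment.

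The region 398893 bp from Chrm2, a muscarinic acetylcholine receptor (chromosome 6, 35988819 to 35989475), ranked 15331 to 26899 in non-targeting and 63104 to 147776 in knockout libraries (−1.81 ± 0.24, adjusted p = 0.000859). With WT Smarcc2 it ranked 22831 to 34181 (1.42 ± 0.24, adjusted p = 0.00406). The region inside Xylt1, which starts glycosaminoglycan chains (chromosome 7, 117441013 to 117441397), changed by −1.93 ± 0.23 in the knockout (adjusted p = 0.000605), by 1.59 ± 0.23 with WT, 1.90 ± 0.23 with S586A and 1.10 ± 0.23 with S586E against vector (adjusted p = 0.00212, 0.000748 and 0.00948). The region 102571 bp from Cldn1, a tight junction protein (chromosome 16, 26253849 to 26254305), changed by −1.85 ± 0.20 (adjusted p = 0.000313), and by 1.56, 1.66 and 1.07 with the 3 add-backs (SE 0.20, adjusted p = 0.00107, 0.000673 and 0.00506). The knockout and add-back changes share the vector libraries, so they are not independent.

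The 3 members with the largest rise in the knockout lay inside Cdk5rap2, Slc20a2 and Usp29. The region inside Usp29, a gene of an imprinted cluster (chromosome 7, 6851549 to 6852093), had no interval in 2 of the 4 non-targeting libraries and ranked 149171 and 139383 in the others. In the knockout it ranked 56803, 65593, 63306 and 64778, a rise of 1.09 ± 0.13 (adjusted p = 0.000685). It was lower than vector in the WT (−0.82 ± 0.13), S586A (−1.03 ± 0.13) and S586E (−1.07 ± 0.13) add-backs (adjusted p = 0.00384, 0.00101 and 0.000696). The regions inside Slc20a2, a phosphate transporter, and Cdk5rap2, a centrosome protein, were higher by 1.13 ± 0.28 and 1.15 ± 0.24 (adjusted p = 0.02 and 0.0103). Their changes from vector in the WT add-back, −0.38 ± 0.28 and 0.02 ± 0.24, did not pass (adjusted p = 0.396 and 0.989). For Cdk5rap2, ranking by summit turned the knockout change to −0.24 (adjusted p = 0.502).

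Some members at genes of the lists were called in the knockout and others were not, which does not show that the latter were unchanged. The region inside P2ry12, a microglia receptor gene (chromosome 3, 59243445 to 59243789), ranked 24826 to 35591 in non-targeting libraries, 49440 and 60657 in unstimulated knockout, and had no interval with KCl (−1.52 ± 0.20, adjusted p = 0.000918). The region 8591 bp from Kcnj4, a potassium channel, changed by −1.01 ± 0.25 (adjusted p = 0.022), and that inside Foxp1, a forkhead factor, by −1.03 ± 0.27 (adjusted p = 0.0268). The Sox5 region had a score above 0 in 3 knockout libraries (ranks 120515, 94518 and 105576) and 1 WT add-back library (123835) only. It entered the fit through the group where it is high, so its change of 0.24 is given without a test. Bcl11b, Acan and Arid1b had changes of 0.02 ± 0.30, 0.07 ± 0.34 and 0.00 ± 0.08 (adjusted p = 1, 0.944 and 1).

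With each of the 3 forms of Smarcc2, more members were called higher than lower. The add-back libraries held 28.4 to 33.1% of the members, and each held more than every vector library. Against vector, WT gave 243 higher and 38 lower of 2800 (4.29% and 5.45% of all regions), S586A 241 and 24 (4.36% and 5.7%), and S586E 236 and 54 (5.7% and 6.5%). By summit more of all regions were higher than lower too, at 5.81% and 3.52% for WT, 6.18% and 3.20% for S586A and 7.62% and 4.28% for S586E, beside 292, 309 and 291 members higher and 22, 19 and 27 lower. The median changes were 0.15, 0.11 and 0.11 over members, and −0.04, −0.07 and −0.04 over all regions. With no filter, of all 3999 members, 177, 196 and 186 were higher (4.43%, 4.90% and 4.65%), against 2.48%, 2.50% and 3.29% of all regions. The WT count higher was 144 and 128 without vector unstimulated or KCl replicate 2 and 125 without WT KCl replicate 1. The S586A count was 146 without either of those vector libraries, 141 without S586A unstimulated replicate 2, and 150 and 124 without S586A KCl replicate 1 or 2. The S586E count was 150 and 153 without vector unstimulated replicate 1 or 2, 133 without vector KCl replicate 2 and 127 without S586E KCl replicate 2. With list length as a covariate S586A gave 87 (3.11%) and WT 157 (5.61%), against 1.44% and 2.84% of all regions. The 3 comparisons share the vector libraries.

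S586A against WT gave 0 members higher and 0 lower (limma; 0.0109% and 0.00728% of all regions). At an unadjusted p under 0.05 there were 131 members (4.68%), against 5.40% of all regions. S586E against WT gave 1 higher and 0 lower (0.0849% and 0.0146% of all regions), with 197 (7.04%) at an unadjusted p under 0.05, against 7.75% of all regions. The median changes were −0.01 and −0.02. This does not show that the forms act alike.

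By held status, 37 members (0.93%) were held by all 4 non-targeting and none of the 4 knockout libraries, and 2 the other way, against 0.40% and 0.30% of all merged regions. Of the 37, 6 were also held by all 12 add-back libraries, as were 62 of the 440 such regions among all merged regions. The 6 lay inside Stat4, a cytokine-activated transcription factor, Ptprm, a receptor phosphatase, and Gm38821, 9112 bp from Daam1, an actin regulator, 111768 bp from Icos, a T cell costimulator gene, and near 4930444P10Rik. These 6 were picked after their values were seen.

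KCl at DIV18 moved members both ways in non-targeting neurons. Of 2800 tested, 142 were lower and 81 higher, where 2.95% of all regions were lower and 6.18% higher. By summit, 336 members were lower and 46 higher, and the direction over all regions turned, to 6.58% lower and 3.73% higher. The median change was −0.03 over members and 0.05 over all regions. The counts were 69 and 27 without unstimulated replicate 1, 40 and 43 without KCl replicate 1, and 31 and 31 without KCl replicate 2, so the excess of lower calls was not kept without either KCl library.

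Loss of Arid2 left no call at members. The 4 non-targeting libraries of that experiment held 39.4 to 44.6% and the 4 Arid2KO libraries 37.0 to 46.1% of the members, and the groups overlapped. Of 3192 tested, 0 were called in either direction (limma; 175, 5.48%, at an unadjusted p under 0.05, against 5.09% of all regions), where 0.00125% of all regions were lower and 0.00625% higher. The median change was 0.00. These lists held 133009 to 184970 intervals. At DIV7, 704 members (17.6%) were held by all 8 libraries of the Arid2 experiment and 1261 (31.5%) by none, against 32.5% and 35.6% of all merged regions. Of the other regions held by all 4 unstimulated DMSO libraries, these shares were 57.1% and 11.7%. Over all 36 libraries outside the rule, 20 members (0.50%) were held by every library and 36 (0.90%) by none, against 18.4% and 10.9% of all merged regions.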

How the data were processed

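The submitters' processing notes name Bowtie2, MACS2, SAMtools, Picard and bedtools, with FastQC and Trim Galore, and the build mm10; no versions are given. The deposited peak lists, 1 per library, give at each summit the authors' fold enrichment, its −log10 p and −log10 q; the score column of the deposited lists repeats the −log10 p and was not used. Read depth is unknown, and no counting interval was computed.

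Intervals were ranked by their best −log10 p within each library. Rank scores were fitted with limma 3.58.1 (R 4.3.3) with a variance trend, separately for the 8 drug libraries with KCl, the 20 DIV18 libraries and the 8 libraries of the Arid2 experiment, with 1 mean per group. DIV18 and Arid2 contrasts average both states. Regions with a score above 0 in at least 2 libraries of a fit were tested, with Benjamini-Hochberg adjustment over all of them and calls at adjusted p under 0.05, given with the standard error (SE) of the fit. The script was tested on simulated data. Comparisons that use the unstimulated drug libraries were not tested, since these chose the members. Rank scores are relative, so a region can fall because others rose.

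Genes and starts come from RefSeq (GRCm38.p6); 16456 of 20661 autosomal protein-coding genes had a start, none of them on 1 of the 19 autosomes. Named members are the 8 strongest in DMSO, 6 called at both KCl times, the 5 lowest and 3 highest in the knockout, up to 2 per gene list by DMSO rank, the 5 genes with most members, and up to 2 per direction where the drug effect differed between times. The members, lists and tests were chosen with earlier results of these data known. Other list lengths, units, overlaps, filters, covariates and left-out libraries were tried.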

Additional observations from a re-analysis of the deposited data

Results flagged for a closer look

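In 3 members the FHT1015 effect with KCl differed between 30 and 10 min by the test of that difference (limma, adjusted over 100687 regions), and it was lower at 30 min in each. The region 236826 bp from Dynlrb2, a dynein light chain, had a difference of −2.04 ± 0.28 (SE, adjusted p = 0.0464), from −0.15 at 10 min to −2.18 at 30 min. Its ranks at 10 min were 46627 and 50455 with DMSO and 48209 and 59755 with FHT1015. At 30 min they were 25892 and 28821 with DMSO and 115458 and 145262 with FHT1015, so the DMSO libraries also ranked it higher at the later time. The region 32656 bp from Isx, a homeobox gene, had −1.93 ± 0.26 (adjusted p = 0.0462), and the region 85560 bp from Smim20, which was not among the members named by the fixed rule, had −1.92 ± 0.25 (adjusted p = 0.0394). These calls were not kept when a DMSO or 10 min FHT1015 library was left out. Without 30 min FHT1015 replicate 1 the median difference was −0.61 over members and −0.16 over all regions, and without replicate 2 −0.41 and −0.05.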

How the results depend on the processing

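Read depth is unknown, and the weak ranks of the members limit every value here. The number of members was 2533 with the top 50000 intervals, 6311 with the top 100000, 7496 from the 10 min and 18783 from the 30 min libraries. It was 4096 to 5696 without 1 library, and asking for 50% overlap left it at 3999. Ranking by fold enrichment gave the same members and the same counts in every fit, so it was no separate check. Counting any interval of the lists, the mean share of members was 100.0% and 99.4% (DMSO and FHT1015 with KCl, 10 min), 99.9% and 60.4% (30 min), 65.5% in non-targeting and 51.6% in knockout libraries. Within 2 kb of a start lay 1.32%.

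Counts of members are given as lower, then higher. Calls over all regions moved with the setting too. With FHT1015 and KCl at 10 min, 0.127% of all regions were lower in the main fit and 0.812% with no filter. The share was 0.331% from 75000 intervals, 2.38% by summit and 1.59% over all 16 drug libraries. The fit over all 16 drug libraries takes part of its spread from the 8 libraries that chose the members, so it is not independent of the rule. FHT1015 with KCl at 10 min gave 87 and 1 with no filter, 40 and 2 from 75000 intervals, 389 and 9 by summit, 0 and 0 with the interval number as covariate, 242 and 2 over all 16 drug libraries, and 0 to 1 and 0 to 0 without 1 library. At 30 min the covariate gave 0 and 0, and 13 were higher by summit, 43 over all 16 libraries, with 1295 to 2286 and 4 to 38 without 1 library. The covariate moved the median of all regions from −0.07 to 0.09 at 30 min, and with it the regions of Pdgfra, Galnt9, Fam189a1, Il20rb and Bcl11b had 0.29, 0.15, 0.13, 0.50 and 0.12. The 30 min minus 10 min effect gave 50 and 2 with no filter, 1 lower from 75000 intervals, 25 and 2 by summit, 0 lower with the covariate, 292 and 4 over all 16 libraries, and 0 to 361 and 0 to 2 without 1 library.

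The knockout gave 132 and 19 with the covariate, 14 higher by summit, and 164 to 296 and 7 to 38 without 1 library; Cdk5rap2 had −0.24 by summit. The WT add-back gave 22 lower by summit, 157 higher with the covariate, and 15 to 48 and 125 to 174 without 1 library. S586A gave 11 and 87 with the covariate, and 9 to 40 and 124 to 182. S586E gave 27 lower by summit, 156 higher from 75000 intervals, and 24 to 57 and 127 to 287. S586A against WT gave 2 and 3 with no filter, and 0 to 2 and 0 to 4. S586E against WT gave 1 and 9 with no filter, 2 higher from 75000 intervals, 3 by summit, and 0 to 3 and 0 to 11. KCl at DIV18 gave 336 and 46 by summit, and 31 to 124 and 27 to 58. Arid2 gave 1 and 3 with no filter, and 0 to 0 without 1 library. The cause of these moves was not tested.

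Libraries with the same replicate number did not deviate together throughout (correlations −0.007 to 0.134), so the numbers were not taken as pairs. With the replicate block, 0 members were lower at 10 min and 0 for the 30 min minus 10 min effect, and the other counts stayed within 1.5 times. Of the values of named regions under alternatives, 1561 kept their side of the threshold, 134 lost the call and 57 gained one. A further 6 changed direction with a call in the main or the alternative fit. Values that changed direction without a call in either fit are counted among the 1561.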
